A study of Caenorhabditis elegans with 2 samples.

Results

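The genes for the proteins of the mitochondrial ribosome were examined in Caenorhabditis elegans. They were taken as every protein-coding gene whose symbol begins mrpl- (large subunit) or mrps- (small subunit) in the Ensembl annotation of WBcel235. There were 70 of them among 19985 protein-coding genes, 41 of the large subunit and 29 of the small subunit. For each gene a window was set that reached 1000 bp before and 200 bp past each annotated 5′ end, the strongest listed region with its summit there was taken, and 36 of the 70 genes had one in the pooled list. The comparison group was all 7284 protein-coding genes with a pooled region in that window.

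The lists came from chromatin immunoprecipitation followed by sequencing (ChIP-seq), in which antibody to GFP pulled down a GFP fusion of NHR-27, a nuclear hormone receptor, with the DNA bound near it. The worms were whole young adults of 78 h and mixed sex of strain OP208, genotype unc-119(ed3) III; wgIs208, in which wgIs208 is an integrated transgene. There were 2 biological replicates of 1 group, and no other genotype, age or treatment. The description and antibody label name nhr-27, whereas a strain note names NHR-270; the name of the antibody label is kept. The control library's alignment was not used here.

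Mitochondria keep a small genome that codes for core subunits of the respiratory chain, and they translate it on ribosomes of their own. In animals every protein of these ribosomes is encoded in the nucleus, made in the cytosol and imported. Some have bacterial counterparts, and others were gained in the mitochondrial lineage. In C. elegans, lowering mitochondrial ribosomal proteins is known to induce the mitochondrial unfolded protein response and, for some of them, to lengthen life.

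The stretches at the summits are shown first for 4 genes whose summit lay upstream and held one of the words searched for: the gene with the highest signal, the next below the threshold, and 2 of lower signal. All are from the RefSeq genome of WBcel235 (ce11), read 5′ to 3′ on the strand of the gene, and centred on the summit. The stretch at mrps-28 is chrV:19643167-19643367 on the plus strand, in an intron of the oppositely oriented gene Y43F8C.7. The stretch at mrpl-28 is chrII:156010-156210 on the minus strand, that at mrpl-55 is chrIV:443614-443814 on the plus strand and that at mrpl-12 is chrIII:10707152-10707352 on the plus strand, all 3 between genes. Capitals mark the searched words on either strand.
mrps-28: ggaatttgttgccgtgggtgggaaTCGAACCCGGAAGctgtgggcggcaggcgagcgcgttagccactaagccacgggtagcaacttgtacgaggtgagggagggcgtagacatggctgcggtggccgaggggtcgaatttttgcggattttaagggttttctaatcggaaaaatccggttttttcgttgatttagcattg
mrpl-28: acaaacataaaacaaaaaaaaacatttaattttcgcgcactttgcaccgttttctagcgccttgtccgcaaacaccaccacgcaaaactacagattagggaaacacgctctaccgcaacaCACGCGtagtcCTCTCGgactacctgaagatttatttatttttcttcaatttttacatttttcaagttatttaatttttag
mrpl-55: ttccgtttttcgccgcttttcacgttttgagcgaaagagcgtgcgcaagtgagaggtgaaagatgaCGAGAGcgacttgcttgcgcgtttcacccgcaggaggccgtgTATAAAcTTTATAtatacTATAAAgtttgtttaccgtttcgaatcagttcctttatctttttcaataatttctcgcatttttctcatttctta
mrpl-12: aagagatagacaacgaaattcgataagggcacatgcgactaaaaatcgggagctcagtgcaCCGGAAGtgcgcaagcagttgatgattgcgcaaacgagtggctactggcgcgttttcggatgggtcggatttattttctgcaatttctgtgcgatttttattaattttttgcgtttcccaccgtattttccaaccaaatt

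At 3 other genes the stretch held the gene's own start codon. Each is shown because the summit lay inside the first coding exon or, at mrps-2, 12 bp before it. The stretch at mrpl-50 is chrII:8929853-8930005 on the plus strand, with the summit at base 53. That at mrps-14 is chrII:10242352-10242552 on the minus strand and that at mrps-2 is chrV:8465574-8465774 on the plus strand, both with the summit at base 101. Capitals mark the annotated start codon, which begins at base 1 of the mrpl-50 stretch, base 63 of the mrps-14 stretch and base 113 of the mrps-2 stretch. The summits of mrpl-50 and mrps-14 therefore lay in coding sequence, and that of mrps-2 lay 12 bp before the annotated 5′ end.
mrpl-50: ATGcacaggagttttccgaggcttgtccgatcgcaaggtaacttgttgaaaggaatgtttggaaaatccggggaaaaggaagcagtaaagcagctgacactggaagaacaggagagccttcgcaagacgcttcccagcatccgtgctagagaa
mrps-14: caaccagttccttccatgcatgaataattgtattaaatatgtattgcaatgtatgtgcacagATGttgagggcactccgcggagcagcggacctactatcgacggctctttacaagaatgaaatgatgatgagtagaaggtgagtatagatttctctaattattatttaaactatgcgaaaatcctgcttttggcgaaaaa
mrps-2: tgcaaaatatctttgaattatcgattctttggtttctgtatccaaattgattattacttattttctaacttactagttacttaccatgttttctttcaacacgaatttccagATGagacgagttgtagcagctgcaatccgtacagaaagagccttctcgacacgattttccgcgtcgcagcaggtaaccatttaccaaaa

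Each replicate list and the pooled list held 30000 regions, and the thresholded list, the optimal set under the irreproducible discovery rate (IDR), held 393. The deposited signal value of a region has no stated scale and is the authors' own; it is used here only to rank and describe regions within a list. Read depth is unknown, so no value carries a counting error of reads. Genes and regions are not replicates, so the exact 95% binomial intervals given for shares cover counting error over genes only, and no test was run on the members. With 1 group of worms, no comparison between conditions was possible. Low-ranked regions of a list that stops at 30000 include what its file label calls background, so a listed region is not a called binding site.

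Mitoribosomal genes had a listed region in the window more often than protein-coding genes in general. In the pooled list 36 of 70 had a region (51.4%, interval 39.2% to 63.6%), against 36.4% of all protein-coding genes. In replicate 1 it was 37 of 70 (52.9%), against 35.8% of all genes. In replicate 2 it was 38 of 70 (54.3%), against 37% of all genes. The share was therefore above that of all genes in both replicates taken alone. A region in both replicate lists was found for 27 of the 70 (38.6%), against 21.4% of all genes. By subunit, 17 of 29 small-subunit genes (58.6%, interval 38.9% to 76.5%) and 19 of 41 large-subunit genes (46.3%, interval 30.7% to 62.6%) had a pooled region, and these intervals overlap widely.

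A summit of the thresholded list lay in the window of 2 of the 36 genes, mrps-28 and mrpl-23 (5.56%, interval 0.68% to 18.7%), against 2.76% of the 7284 genes. With so few genes the interval holds the share of all genes. Among the 393 highest regions of replicate 1 alone, 1 of 37 genes had a summit, against 2.49% of genes with a region in that list. Among the 393 highest of replicate 2 alone, 3 of 38 had one, against 2.79%. The 10% of genes with the highest pooled signal began at a signal of 64.8 and held 7 of the 36 genes (19.4%, interval 8.19% to 36%), against the 10% of all genes that it takes by construction.

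The pooled signal of the members' strongest regions had a median of 45.5 and ran from 28.8 to 152.3, whereas the median over all 7284 genes was 40.2. The median member ranked at percentile 64.5 of all genes with a pooled region, and 22 of 36 lay above the middle of that ranking. This placing differed between the replicates. Within the list of replicate 2 alone the median of 38 members was at percentile 69.3, with 25 above the middle and 6 in the top 10%. Within the list of replicate 1 alone the median of 37 members was at percentile 44.3, with 17 above the middle and 4 in the top 10%. Taken by signal, the members thus stood above the typical gene in replicate 2 and below it in replicate 1.

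**Figure D1:**
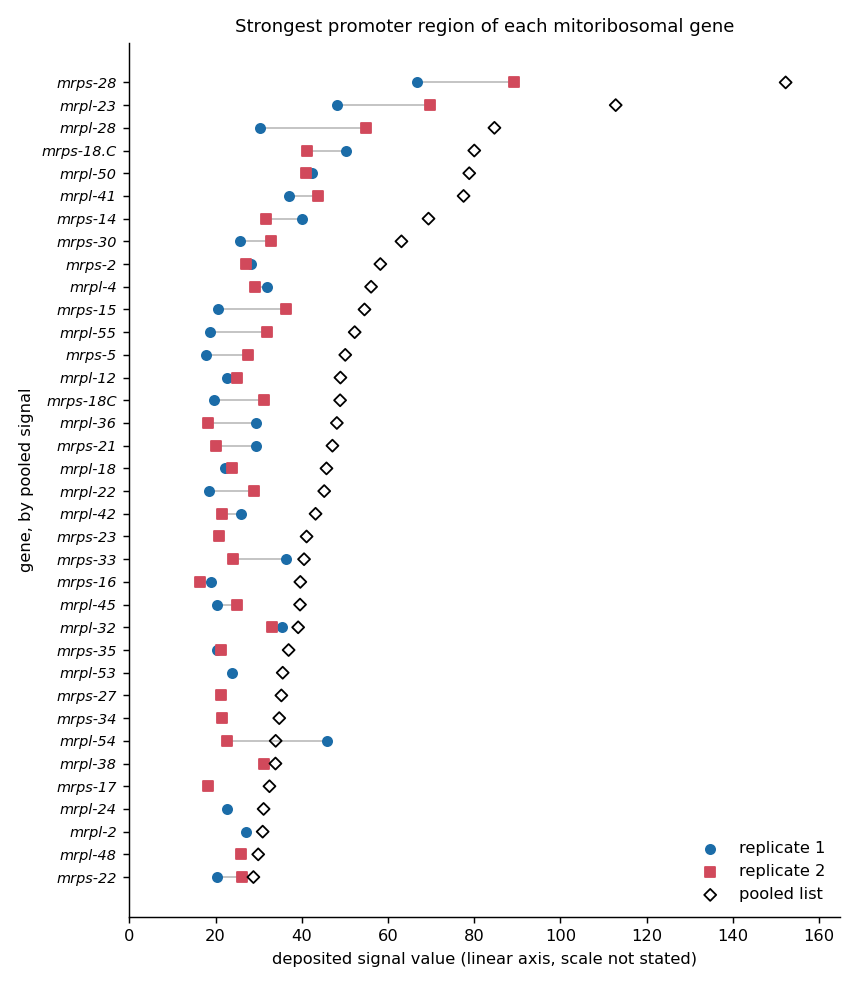
Deposited signal value (linear axis, scale not stated) of the strongest promoter region of the 36 mitoribosomal genes, ordered by pooled signal. Circles are replicate 1, squares replicate 2 and open diamonds the pooled list; a missing symbol means no overlapping region in that replicate's list. mrps-28 (152.3) and mrpl-23 (112.8) stand apart from the other genes, which run from 84.7 at mrpl-28 down to 28.8 at mrps-22.

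**Figure D2:**
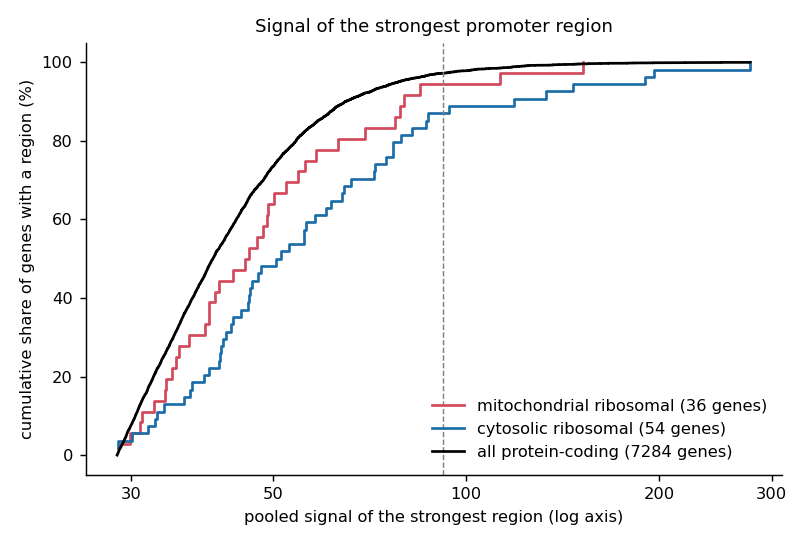
Cumulative share of genes (%) by pooled signal of the strongest promoter region (log axis), for 36 mitoribosomal genes, 54 cytosolic ribosomal protein genes and all 7284 protein-coding genes with a region. The dashed line is the lowest signal of a thresholded region, 92.1. The mitoribosomal curve lies right of that of all genes through most of its course and left of the cytosolic ribosomal one over most of the middle range.

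Both members above the threshold had their strongest region far upstream, beside a small nucleolar RNA (snoRNA) gene, the source of a guide for RNA modification that is often encoded in an intron. mrps-28, named as a small-subunit gene, had signals of 66.8 in replicate 1 and 89.1 in replicate 2. In the pooled list it had 152.3, rank 47 of 30000 (V:19643072-19643461). Both replicates placed it high, at ranks 125 and 30 of their own lists. The summit was 972 bp upstream of the 5′ end, the member nearest to the upstream edge of the window, in an intron of Y43F8C.7 and 80 bp from the snoRNA gene Y43F8C.22. A second pooled region lay 13 bp downstream of the 5′ end of mrps-28 and had a signal of only 33.6, rank 20928.

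mrpl-23 is the homologue of bacterial L23, which sits at the exit of the peptide tunnel. Its strongest region had signals of 48.2 in replicate 1 and 69.7 in replicate 2, and 112.8 in the pooled list, rank 177 (I:6212586-6212975, minus-strand gene). The summit lay 896 bp upstream, inside the snoRNA gene T08B2.13 and an intron of fars-1, the gene of a cytosolic phenylalanyl-tRNA synthetase subunit. The other regions in its window lay 61 and 260 bp upstream and had pooled signals of 49.0 and 45.7. Near their own 5′ ends, both genes thus had signal far below the lowest thresholded value of 92.1.

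One more member, mrpl-4, had its strongest region within 200 bp of a small RNA gene. The gene is the homologue of bacterial L4, which lines the peptide tunnel, and had signals of 31.9 in replicate 1, 29.2 in replicate 2 and 56.1 in the pooled list. Its summit lay 799 bp upstream, 2 bp from the snoRNA gene T23B12.13 in an intron of mrps-2, the mitoribosomal gene next to it. In all, 3 of 36 genes had such a strongest region (8.33%, interval 1.75% to 22.5%), against 2.27% of all genes. Away from tRNA, snoRNA and snRNA genes no member had a thresholded summit, 0 of 36, against 2.17% of all genes. Taking 3 counts as the limit that a count of 0 allows, the share could be up to 8.33%, and the exact 95% interval reaches 9.74%. The top 10% then held 5 of 36 (13.9%), against 8.94% of all genes. Whether the small RNA genes had a part in these signals was not tested.

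**Figure D3:**
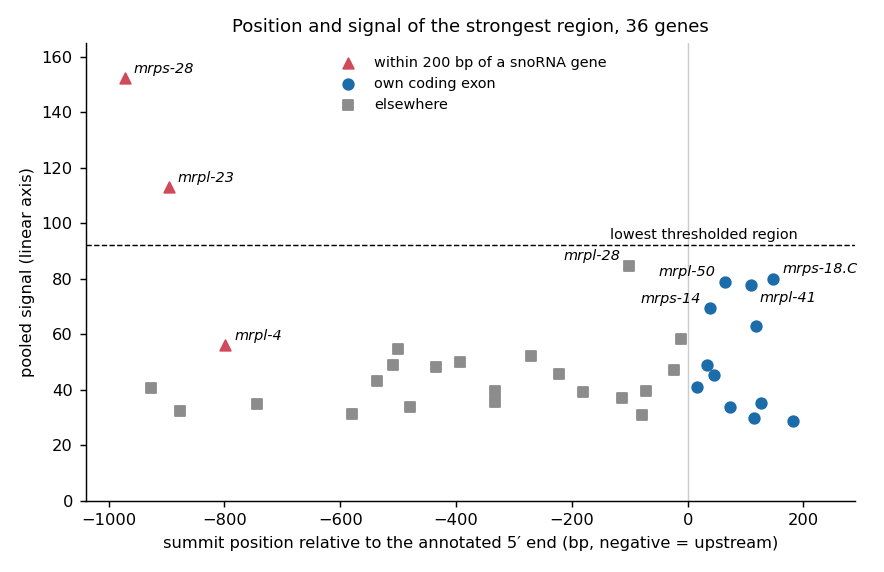
Pooled signal (linear axis) of the strongest region of each of the 36 genes against the position of its summit relative to the annotated 5′ end (bp, negative upstream). Triangles are summits within 200 bp of a snoRNA gene, circles summits in the gene's own coding exon and squares all others; the dashed line is the lowest thresholded signal. Both points above the line are triangles near the upstream edge, and the 4 circles between 69.4 and 80.0 lie within the first 148 bp of their genes.

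Below the threshold the highest large-subunit gene was mrpl-28, homologue of bacterial L28. Its region had a signal of 30.3 in replicate 1 and 54.8 in replicate 2, and of 84.7 in the pooled list, rank 561. The summit lay 101 bp upstream between genes. Its rank was 272 in replicate 2 but 5305 in replicate 1, so its place among the members rested mostly on replicate 2. mrpl-50, homologue of a human protein without a bacterial counterpart, had even signals, 42.4 in replicate 1 and 41.1 in replicate 2 (pooled 78.9), although the replicate 1 region had its own summit outside the window and its strongest region inside had only 23.5. mrpl-41, likewise known from the mammalian large subunit and not from bacteria, had 37.0 in replicate 1 and 43.8 in replicate 2 (pooled 77.5). The summits of mrpl-50 and mrpl-41 lay 64 and 109 bp downstream of the 5′ end, in the genes' own coding exons.

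The remaining large-subunit genes of the 15 highest had pooled signals of 52.3 and 49.0. mrpl-55 (52.3), another gene whose human homologue has no bacterial counterpart, had 18.7 in replicate 1 and 31.9 in replicate 2, with the summit 271 bp upstream. mrpl-12 is the homologue of the bacterial stalk protein L7/L12, which recruits translation factors, and had 22.6 in replicate 1 and 25.0 in replicate 2. Its summit lay 509 bp upstream, in the windows of Y39A1A.21 and Y39A1A.22 too and nearest to the 5′ end of Y39A1A.22. At the other end of the ranking were mrpl-24 (31.1), mrpl-2 (30.9) and mrpl-48 (29.9), each with a region in 1 replicate list only. L2 of bacteria, the counterpart of mrpl-2, lies by the peptidyl transferase centre.

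In the small subunit mrps-18.C came next after mrps-28. S18 proteins sit on the platform of the bacterial small subunit, and the annotation holds several worm genes of that name. mrps-18.C had signals of 50.4 in replicate 1 and 41.2 in replicate 2 (pooled 80.0), with the summit 148 bp downstream of its 5′ end and also in the window of T14B4.1. The separate gene mrps-18C had 19.7 in replicate 1 and 31.2 in replicate 2 (pooled 48.9), with the summit 33 bp downstream. mrps-14, homologue of a bacterial protein of the subunit's head, had 40.1 in replicate 1 and 31.8 in replicate 2 (pooled 69.4), with the summit 38 bp downstream. The summits of all 3 genes lay in their own coding exons.

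mrps-30 had signals of 25.6 in replicate 1 and 32.9 in replicate 2 (pooled 63.1), its summit 118 bp into the gene; it is counted by its symbol, although its human homologue was placed in the large subunit. mrps-2, counterpart of bacterial S2, had 28.3 in replicate 1 and 27.1 in replicate 2 (pooled 58.2), with the summit 12 bp upstream of the 5′ end. mrps-15 had 20.5 in replicate 1 and 36.2 in replicate 2 (pooled 54.6), with the summit 501 bp upstream, in a coding exon of asg-1, which codes for an ATP synthase subunit and whose 5′ end was nearer. mrps-5, counterpart of a bacterial protein that helps set decoding accuracy, had 17.8 in replicate 1 and 27.6 in replicate 2 (pooled 50.1), with the summit 394 bp upstream in an untranslated exon of sel-1. The lowest small-subunit values were those of mrps-17 (32.5) and mrps-22 (28.8). The summit of mrps-22 was the one nearest to the downstream edge, 182 bp into the gene.

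The replicates agreed on some of these regions and not on others. Of the 36 pooled regions, 27 overlapped a region in both replicate lists, 3 in replicate 1 only and 6 in replicate 2 only. Signals of 18 of the 27 were within 1.5-fold of each other (66.7%), against 73.3% of the 3281 distinct such regions of all genes. The ratio of replicate 2 to replicate 1 ran from 0.495 to 1.81 with a median of 1.07, and replicate 2 was higher in 15 of 27. Across the 27 genes Spearman's rho between replicates was 0.43, against 0.31 across the 3281 regions of all genes. Genes are not independent replicates, and the pooled list was made from both libraries.

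Rank differences could be taken only for the 27 genes whose region overlapped one in both replicate lists. Among those, the 5 whose rank differed most all ranked higher in replicate 2. Genes missing from 1 list have no such difference, and among them mrpl-38 ranked 3542 in replicate 2 and mrpl-2 ranked 8210 in replicate 1. mrpl-55 ranked 24089 in replicate 1 and 3298 in replicate 2. mrps-5 ranked 26637 in replicate 1 and 6022 in replicate 2. mrpl-22, homologue of bacterial L22 of the peptide tunnel, ranked 24942 in replicate 1 and 4906 in replicate 2, with signals of 18.4 and 29.0 in those lists. mrps-18C and mrps-15 ranked 21301 and 19510 in replicate 1 and 3610 and 1871 in replicate 2. For mrps-15, mrpl-55, mrps-5 and mrps-18C, which were among the 15 highest by pooled signal, replicate 2 thus supplied the larger value.

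Where the summits lay differed somewhat from the general pattern. The median summit of the members was 146.5 bp upstream of the 5′ end, against 294 bp upstream over all genes. For 12 of 36 genes it was at or downstream of the 5′ end (33.3%, interval 18.6% to 51%), against 22.6% of all genes. All 12 of these summits lay in the gene's own coding exon. That place thus held 12 of the members' 36 summits (33.3%), against 16.4% of summits over all genes. Summits between genes numbered 11 of the 36 (30.6%), against 41.8%. Another 12 lay in a different protein-coding gene (33.3%), against 21.7%. In the list of replicate 1 alone the members' median summit was 331 bp upstream, against 296 bp upstream over all genes, so this difference, too, did not hold in both lists.

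Many mitoribosomal genes sit close behind another gene on the same strand, an arrangement common in the operons of this species. A same-strand protein-coding neighbour ended within 500 bp upstream of 27 of the 70 (38.6%), against 18.1% of all genes. Of those 27 genes, 19 had a pooled region (70.4%, interval 49.8% to 86.2%), against 45.3% of all genes so placed. Of the other 43 genes, 17 had one (39.5%, interval 25% to 55.6%), against 34.5% of all genes with no such neighbour. The excess of regions over all genes was therefore larger among the closely preceded members. Not all of these regions lay in the member itself or next to its 5′ end. The summits of mrpl-4, mrpl-23, mrpl-24, mrpl-42, mrpl-53, mrps-5 and mrps-33 were inside the upstream neighbour. Of the 19 regions, 8 had the summit in the member's own coding exon (42.1%), against 21.8% of all genes so placed. Separately, 10 of 36 strongest regions were also in a window of another gene (27.8%), against 21.3% of all genes, and could not be assigned to 1 gene. Of these 10 regions, 7 belonged to members with no same-strand neighbour that close.

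The members were spread over the autosomes, with 22 on chromosome III (31.4%), against 13.2% of all genes. None of the 70 was on X, against 13.7% of all genes; the limit of 3 counts is a share of 4.29% and the exact 95% interval reaches 5.13%.

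The other 34 genes had no pooled summit in the window. Of these, 22 had none in either replicate list, 5 had one in replicate 1 only, 5 in replicate 2 only, and mrpl-17 and mrpl-19 had one in each. Just outside the upstream edge lay the summit of mrps-18B at 1067 bp upstream (pooled signal 29.3), with that of mrps-28 just inside at 972 bp. Just outside the downstream edge lay that of mrps-26 at 283 bp (35.7), with that of mrps-22 just inside at 182 bp. The members next to the lowest thresholded value of 92.1 were mrpl-23 (112.8) above it and mrpl-28 (84.7) below it. The signal of mrpl-23 was not close to that value, as it exceeded the thresholded list's median of 109.0.

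Words of 6 to 8 bases were sought on both strands within 100 bp of the 36 summits, as a description of the letters there. GAGAGA was found at 3 summits (8.33%), those of mrps-5, mrps-23 and mrps-27, against 17.6% of all genes and 20.4% of the 54 cytosolic ribosomal genes. CGAGAG was at 3 (mrpl-18, mrpl-28, mrpl-55; 8.33%), against 10.8%. CACGCG was at 3 (mrpl-18, mrpl-28, mrpl-48; 8.33%), against 5.19%. The stretch at mrpl-28 printed above thus holds 2 of these words. AGGTCA, the half-site of many nuclear hormone receptors, was at 1 summit, mrps-23 (2.78%), against 5.86%.

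CCGGAAG, a core bound by ETS factors, was at 2 summits, mrps-28 and mrpl-12 (5.56%), against 1.89%. The counts for CACGTG were 1 of 36 (2.78%), against 4.48%, and for TATAAA 5 of 36 (13.9%), against 16.3%. TTTCAG, the letters of a worm splice acceptor, was at 13 (36.1%), against 30.8%, and TGATAA at 6 (16.7%), against 14.5%. GCATGCGC was at 0 of 36 (limit of 3 counts 8.33%), against 0.206%. GGTTCGA, part of the internal B box of tRNA genes, was searched after the mrps-28 stretch had been seen. It was at 2 of 36 summits, mrps-28 and mrpl-4 (5.56%), against 2.36% of all genes and 6.97% of the 201 genes with a thresholded summit. In the mrps-28 stretch it is on the other strand, as TCGAACC, and shares 1 base with CCGGAAG. GC content within 100 bp of the summits was 39.3% ± 6.3 for members (SD over 36 summits), against 40.6% ± 7.16 over 7284.

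Beside other genes of the same functions, mitoribosomal genes were neither the most nor the least often listed. Cytosolic ribosomal protein genes, which code for the ribosome outside mitochondria, had a pooled region in 54 of 82 cases (65.9%) and a thresholded summit in 7 of those 54 (13%). Their median signal was 50.9 and their median percentile was 74.6 in replicate 1 and 71.0 in replicate 2, so unlike the members they stood above the middle in both. Away from small RNA genes 6 of the 54 (11.1%) still had a thresholded summit, against 0 of 36 members; this difference was not tested. The highest was rpl-3, with a pooled signal of 277.6, rank 4. Of the 54 strongest regions, 30 (55.6%) were also in a window of another gene and could not be assigned to 1 gene. Among the thresholded ones, those of rpl-12, rpl-15, rpl-20 and rps-1 were so shared. Those of rpl-3, rpl-35 and rps-26 were not.

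Over all protein-coding genes 36.4% had a region, and 2.76% of those had a thresholded summit, so in lists this small a thresholded count of 0 says little. Among genes that work with the mitoribosome, 8 of 12 mitochondrial tRNA synthetase genes had a region, with 0 thresholded. Genes for translation factors and associated proteins had 2 of 8, also with 0 thresholded. The annotation lacked 3 of 15 symbols sought for the synthetases and 8 of 16 for the translation factors. Complex I, some of whose core subunits are made on these ribosomes, had 11 of 16 with a region and 0 thresholded. The list for complexes II, III and IV had 19 of 32, and 2 of those were thresholded, cox-5A (118.1) and cyc-2.1 (113.0). That list also held genes added by name, and cyc-2.1, a cytochrome c gene, is one of them. ATP synthase genes had 6 of 12, with atp-1 (123.2) thresholded. Import genes had 7 of 19 and genes of mitochondrial DNA upkeep and transcription 2 of 5, with 0 thresholded. Chaperone, protease and stress-response genes had 9 of 14, with hsp-60 (155.0), a mitochondrial chaperone gene induced in the unfolded protein response, thresholded. The regions of hsp-60, cyc-2.1 and atp-1 were also in a window of another gene, so they could not be assigned to 1 gene. That of cox-5A was not shared.

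**Figure D4:**
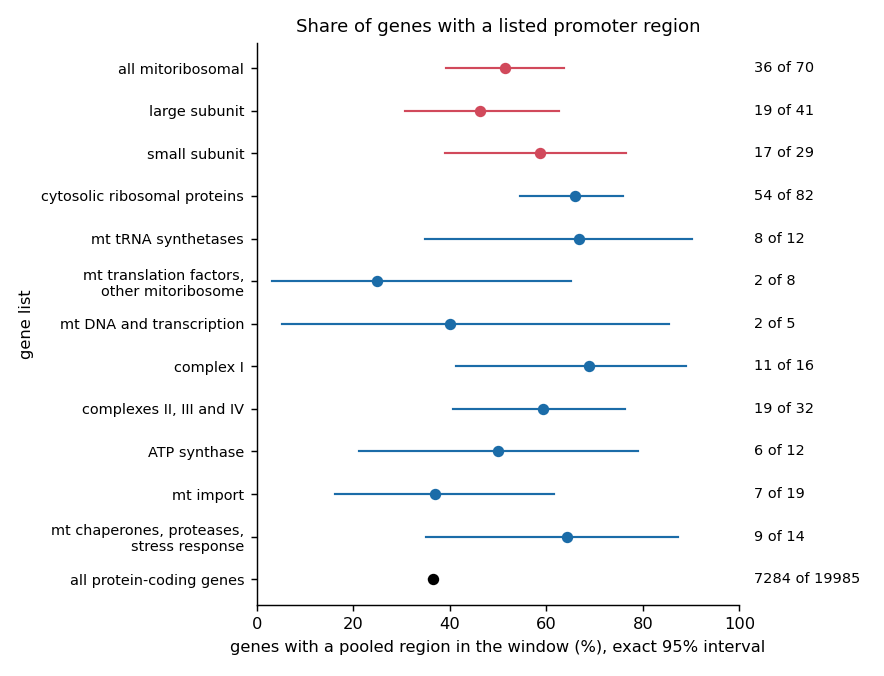
Share of genes (%) with a pooled region in the window for the mitoribosomal genes, their 2 subunits, 9 other gene lists and all protein-coding genes; bars are exact 95% binomial intervals and the counts stand at the right. The mitoribosomal share of 51.4% lies above the 36.4% of all genes and below the 65.9% of cytosolic ribosomal protein genes.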

How the data were processed

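Genomic DNA from anti-GFP ChIP-seq of whole worms was sequenced in 2 biological replicates, sonicated to 200 to 800 bp per the labels. The authors deposited lists of regions on ce11 (WBcel235): 30000 each for both replicates and the pooled reads, and a thresholded set of 393. The authors' signal values come without a scale. The deposited −log10 q value reached its ceiling of 2.59 in the pooled list, so regions were ranked by signal. The aligner, peak caller and IDR threshold are not given in the sources used here, nor is read depth.

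Gene positions came from Ensembl release 115, sequence from RefSeq's genome of the same build. Summits within 1000 bp before to 200 bp past the 5′ end of any annotated transcript were assigned to a gene, and the region with the highest signal was kept. Replicate values are those of the region overlapping the pooled one. Python 3.11.15, pandas 2.3.3, numpy 2.4.6, scipy 1.17.1 and matplotlib 3.10.9 were used, and the window steps were tested on simulated data. Lists are described by counts and medians beside all protein-coding genes.

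The members, lists and words were chosen with earlier results of these data known. The named genes are those with a thresholded summit, the 15 highest and 5 lowest by pooled signal, the 5 with the largest rank difference between replicates, those next to a window edge or the threshold, and genes sharing a region with one of these. Rank differences were taken only where the pooled region overlapped a region in both replicate lists. Other genes are named where a count is small. Alternatives changed the window, the overlap rule, the 5′ ends, gene assignment, regions near small RNA genes, closely preceded genes, the threshold, the word window and the replicates. A restriction to autosomal genes was added after seeing the data. Symbols in the lists that the annotation does not hold were left out.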

Additional observations from a re-analysis of the deposited data

How the results depend on the processing

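No paired analysis was possible because there is 1 group and no test. Of 95 alternative values over 17 settings, 70 stayed within 1.5-fold for counts or within the spread for other values, and 25 moved. The spread is the SD of the 2 single-replicate values, which is 17.7 for the percentile and 158.7 bp for the summit. Limits this wide pass large changes, and counts were compared without their changing number of genes. The tally of 70 is therefore no measure of stability. Besides those given here, the moved leave-one-out values are inside the ranges below. The share of members with a region was above that of all genes in all 12 settings that gave one, and it was least apart without closely preceded genes, 17 of 43. The thresholded count of 2 became 0 of 29 with a window of 500 bp upstream, against 2.96% of all genes with a region. It became 0 of 35 without regions near small RNA genes, against 2.2%. Both zeros follow from where the 2 summits lie. The count was 1 of 28 with nearest 5′ ends only, against 2.58%, and 1 of 17 without closely preceded genes, against 2.57%. With the 1000 highest regions it was 6 of 36, against 6.33%. With no window downstream of the 5′ end 27 members had a region. Their median signal was 40.5, against 39.9 over all genes, and their median percentile was 52.3. The top 10% held 3 of the 27. The median summit was 479 bp upstream (-479), against 443 bp upstream over all genes, and 6 regions were shared, against 18.9%. Without closely preceded genes the top 10% held 2 of 17. With 2000 bp upstream the median summit was at -522.5, against -798 over all genes. In that window 28 of 48 regions also lay in another gene's window, against 34.5% of all genes. With 500 bp upstream 6 of 29 did, against 13.8%, and with nearest 5′ ends 6 of 28, against 13%. GAGAGA was at 5 of 29 summits with 500 bp upstream, a share close to the 17.8% of all genes. It was at 1 of 27 with no downstream window, against 19.3%. With 2000 bp upstream it was at 6 of 48, against 16.6%, and with any overlap at 5 of 43, against 16.3%. For the remaining moves the cause was not tested. With 1 replicate list alone, genes with a region numbered 37 to 38, thresholded genes 1 to 3, the top 10% 4 to 6 and shared regions 11 to 15, with GAGAGA at 2 summits in either; the median percentile was 44.3 to 69.3, the median signal 22.6 to 26.7 and the median summit -331 to -106.5. Over all genes GAGAGA was at 16.6% of summits in replicate 1 and 16.7% in replicate 2. Shared regions were 20.2% over all genes in replicate 1 and 21.7% in replicate 2. A single list's signal is on its own scale, with medians over all genes of 23.7 in replicate 1 and 22.4 in replicate 2. The restriction to autosomal genes, added after seeing the data, moved no value. No member was on X, so only values ranked or set against all genes could change. The median percentile of the members was then 64.4.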

Other observations

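Among the 34 mitoribosomal genes without a pooled summit in the window, the nearest pooled summit lay a median of 1005 bp beyond the edge of the window. The highest signals just beyond the edges were those of mrps-6, 1217 bp upstream with a pooled signal of 71.2, and mrps-25, 286 bp downstream with 63.9. These genes were chosen after their values were seen. A pooled signal of 71.2 is above the 64.8 at which the top 10% of genes began. Inside the window of mrps-6, replicate 2 had a region of 17.4 and replicate 1 had none. Those values are for summits inside the window, so they do not bear on the pooled region outside it. The replicate signals of that pooled region were not examined.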
